A study of Brassica napus and Camelina sativa and Thlaspi arvense with 24 samples.

Results

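The genes described here are the copies of plastid pyruvate dehydrogenase E1 alpha in 3 oilseed crops of the Brassicaceae, that is, the expressed orthologs of the *A. thaliana* gene AT1G01090. All 7 of the 7 listed IDs were found among the 238537 gene IDs of the series. BnaA10g000830.3DH, BnaC05g000790.3DH and BnaA09g068760.3DH belong to *B. napus* (called the A10, C05 and A09 copies below, after the chromosome in the ID), Csa03g002150, Csa14g002090 and Csa17g001570 to *C. sativa*, and CAH2039194 to pennycress. The label was checked by matching the tables numerically with the study's own table of *A. thaliana* orthologs, and in all 3 species the match for AT1G01090 returned exactly the listed IDs. No gene model or sequence of these genomes was used here, so the copies are given by ID, without coordinates.

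The pyruvate dehydrogenase complex turns pyruvate into acetyl-CoA, and plants have it in mitochondria and in plastids. Its E1 component, built from alpha and beta subunits around the cofactor thiamine diphosphate, carries out the first step, the decarboxylation of pyruvate, before the E2 and E3 components transfer the acetyl group and restore the lipoyl arm. In green leaves the plastid complex supplies acetyl-CoA to fatty acid synthesis inside the chloroplast, since acetyl-CoA does not pass the envelope.

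RNA was sequenced from fully expanded cotyledons and first true leaves of young seedlings kept in a growth chamber. The groups were leaf and cotyledon of the *B. napus* line N99, of the *B. napus* line DH12075, of the *C. sativa* line DH55 and of a pennycress (*Thlaspi arvense*) line collected in the field, with 3 biological replicates each and 24 libraries in all. No plant was treated, and each *B. napus* and *C. sativa* genotype was a single line, so a difference between species is a difference between those lines. Values are TPM, a unit in which every library sums to 1000000, so that a level is a share of the library corrected for transcript length and the number of reads behind it is unknown. One N99 cotyledon library, replicate 2, stood apart: its top 10 genes took up 37.1% of all TPM, against 7.58% to 13.5% in the other 23 libraries. The contrasts of E1 alpha levels between lines and between N99 tissues are therefore also given without that library. Contrasts of other single genes are given only with it. N99 was quantified against DH12075 transcripts.

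All 7 copies were expressed in every library of their line. In N99, the A09 copy averaged 50.7 ± 8.45 TPM, the C05 copy 32.7 ± 8.91 TPM and the A10 copy 14.3 ± 3.64 TPM (SD, n = 6 libraries). In DH12075, the A09 copy averaged 47.9 ± 3.46 TPM, the A10 copy 23.7 ± 4.30 TPM and the C05 copy 18.4 ± 5.28 TPM (SD, n = 6). The A09 copy was thus the most abundant copy in both lines, while the order of the other 2 copies was turned round between them. In *C. sativa*, Csa17g001570 averaged 39.2 ± 3.30 TPM, Csa14g002090 35.9 ± 4.07 TPM and Csa03g002150 33.3 ± 1.55 TPM (SD, n = 6), so its 3 copies lay close together. The single pennycress gene averaged 134 ± 35.6 TPM (SD, n = 6). Ranked against the genes of the same line that averaged 1 TPM or more, each copy exceeded between 79.7% and 94.2% of them, with the A10 copy of N99 at the bottom of that range and the A09 copy of N99 at its top. These are levels in whole organs, where fewer cells of a type and less RNA per cell cannot be told apart.

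N99 and DH12075 divided E1 alpha expression differently between the A10 and C05 copies. In leaves, the A10 copy had 14.4, 18.5 and 15.02 TPM in N99, against 26.7, 28.6 and 23.5 TPM in DH12075. In cotyledons it had 11.02, 9.20 and 17.7 TPM in N99, against 18.2, 19.0 and 26.4 TPM in DH12075. Every N99 library lay below every DH12075 library of the same tissue. The A10 copy was lower in N99 by 0.71 on the log2(TPM + 1) scale (log2 difference -0.71, SE 0.16, adjusted p = 0.00196, limma with tissue as a covariate).

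The C05 copy went the other way. In leaves it had 35.0, 43.2 and 35.4 TPM in N99, against 21.6, 24.1 and 17.1 TPM in DH12075. In cotyledons it had 24.4, 19.6 and 38.4 TPM in N99, against 12.3, 12.3 and 22.9 TPM in DH12075. The lines did not overlap in leaves, while in cotyledons replicate 2 of N99 lay below replicate 3 of DH12075. The difference was 0.80 on the log2(TPM + 1) scale (SE 0.19, adjusted p = 0.00308, limma). Without cotyledon replicate 2 of N99, it was 0.89 for the C05 copy and -0.62 for the A10 copy (limma, adjusted p = 0.00164 and 0.00346). With cotyledons alone the C05 difference was 0.76 and missed the threshold (limma, adjusted p = 0.0590), and with leaves alone it was 0.83 (limma, adjusted p = 0.00539).

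The A09 copy and the sum of the 3 copies were not called between the lines. In leaves, the A09 copy had 54.9, 54.0 and 56.8 TPM in N99, against 47.2, 42.7 and 46.7 TPM in DH12075. In cotyledons it had 56.8, 35.3 and 46.6 TPM in N99, against 47.2, 51.0 and 52.5 TPM in DH12075. The lines overlapped in cotyledons, while in leaves every N99 library lay above every DH12075 library. Over both tissues the A09 difference was 0.07 on the log2 scale, with a 95% interval from -0.23 to 0.36 (limma, adjusted p = 0.715). The summed copies averaged 97.7 ± 18.1 TPM in N99 and 90.0 ± 9.13 TPM in DH12075 (SD, n = 6 each), a log2 difference of 0.10 with a 95% interval from -0.20 to 0.40 (limma, adjusted p = 0.577). Without cotyledon replicate 2 of N99, the difference was 0.17 for the A09 copy and 0.20 for the sum (limma, adjusted p = 0.147 and 0.0906). Quantile normalization made both values positive calls, at 0.31 for the A09 copy (limma, adjusted p = 0.00605) and 0.31 for the sum (limma, adjusted p = 0.00634). Over all 42767 genes tested between the lines, 24.6% were higher in N99 and 29.2% lower, so calls in either direction were common among all genes, beside 1 copy higher and 1 copy lower out of 3 here.

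**Figure D1:**
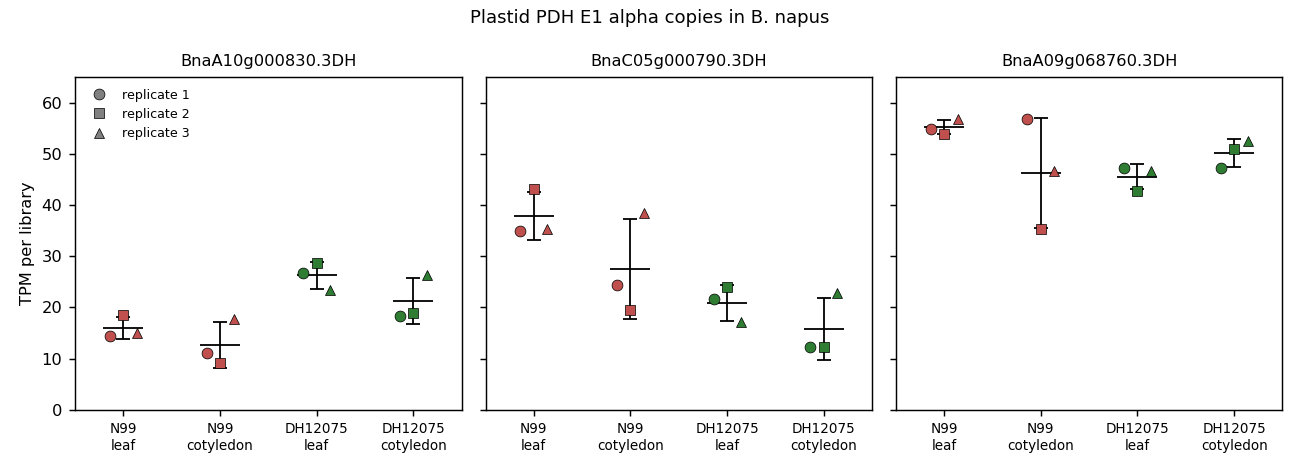
TPM of the 3 *B. napus* copies of plastid pyruvate dehydrogenase E1 alpha by line and tissue, 1 panel per copy. Points are libraries, the wide bar is the mean and the whiskers are 1 SD (n = 3); over both tissues the A10 copy averages 14.3 TPM in N99 and 23.7 TPM in DH12075, and the C05 copy 32.7 TPM in N99 and 18.4 TPM in DH12075. Within tissues the lines overlap in cotyledons for the C05 and A09 copies, and in no other panel and tissue.

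The ratio of the C05 to the A10 copy within each library does not depend on how the library was scaled. It lay between 2.13 and 2.43 in N99 (mean 2.27 ± 0.12, SD, n = 6) and between 0.647 and 0.867 in DH12075 (mean 0.761 ± 0.092, SD, n = 6), and the lines did not overlap. In N99 leaves the ratio was 2.43, 2.34 and 2.36, and in N99 cotyledons 2.21, 2.13 and 2.17. In DH12075 leaves it was 0.809, 0.841 and 0.731, and in DH12075 cotyledons 0.672, 0.647 and 0.867. The highest DH12075 ratio came from cotyledon replicate 3, and the lowest N99 ratio from cotyledon replicate 2. The 2 copies together gave 47.0 ± 12.5 TPM in N99 and 42.1 ± 9.55 TPM in DH12075 (SD, n = 6 each), with ranges from 28.8 to 61.7 TPM in N99 and from 30.5 to 52.7 TPM in DH12075.

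Shares of the summed E1 alpha TPM gave the same picture. The A10 copy held 14.6 ± 1.84% of the sum in N99 and 26.2 ± 2.65% in DH12075 (SD, n = 6 each), a difference of -11.6 percentage points. Its exact permutation p, with line labels exchanged within tissue, was 0.005, the smallest that the 400 arrangements allow, or 0.0075 after adjustment over the 3 copies. The C05 copy held 33.0 ± 4.18% in N99 and 20.1 ± 4.10% in DH12075 (SD, n = 6 each), a difference of 12.9 percentage points with the same exact p of 0.005 and adjusted p of 0.0075. The A09 copy held 52.4 ± 5.91% in N99 and 53.7 ± 6.65% in DH12075 (exact permutation p = 0.705, n = 6 each). Without cotyledon replicate 2 of N99, the differences were -11.6 points for the A10 copy and 13.4 points for the C05 copy (exact permutation, adjusted p = 0.0075 each).

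**Figure D2:**
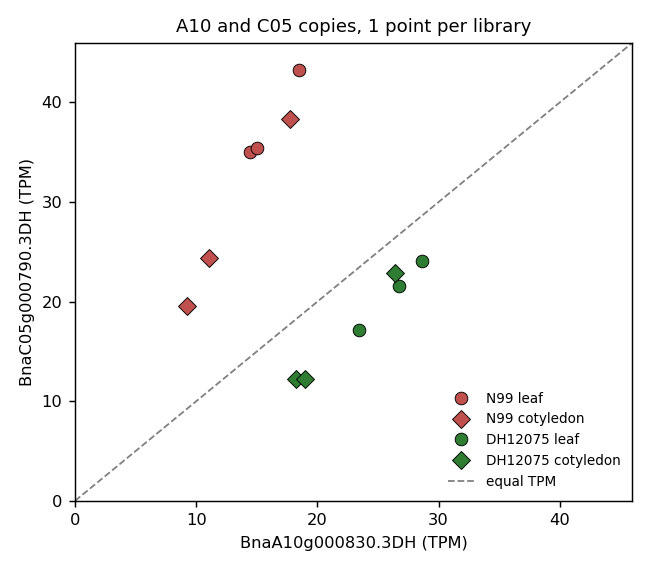
TPM of the A10 copy (x axis) against TPM of the C05 copy (y axis) in the 12 *B. napus* libraries, with the dashed line at equal TPM. The N99 libraries lie above the line (C05 over A10 from 2.13 to 2.43) and the DH12075 libraries below it (0.647 to 0.867), and within each line both copies are high or low in the same libraries.

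The A10 and C05 copies varied together from library to library within each line, and the A09 copy less so. Over the 6 libraries of a line, the correlation of log2(TPM + 1) between the A10 and C05 copies was 0.988 in N99 and 0.992 in DH12075. The A09 copy gave 0.51 with the A10 copy and 0.60 with the C05 copy in N99, and -0.34 and -0.28 in DH12075. These values describe 6 points that share line, scaling and 2 tissues. Pooled over the 12 libraries, the A10 and C05 copies had a correlation of -0.13, since the lines lie on opposite sides of equal levels. Both lines had replicate 3 as the cotyledon library with the highest A10 and C05 levels, close to the leaf libraries of the same line. The sequences of the copies were not compared here, and a change of expression and a change in how reads were divided between copies against DH12075 transcripts cannot be told apart in these tables.

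The IDs around each copy were called in both directions. Of the 10 IDs on either side of the A10 copy, 13 were tested, of which 5 were higher and 4 lower in N99, with a median log2 difference of 0.28. Around the C05 copy 16 were tested, of which 7 were higher and 4 lower in N99, with a median of 0.32. Around the A09 copy 12 were tested, of which 4 were higher and 4 lower, with a median of 0.15. Over all genes, 24.6% were higher and 29.2% lower in N99, with a median of -0.04. From 3 IDs before the A10 copy to 5 after it, all 5 tested IDs lay below 0, as the copy itself did, and 4 of them were called lower. Just outside this window the values were above 0. BnaA10g000790.3DH before it (1.70) and BnaA10g000900.3DH after it (1.26) were called higher, and BnaA10g000890.3DH (0.28) was not called. In the same window, chosen after the values were seen, 5 of 6 lay below 0 around the C05 copy, which itself was higher, and 2 of 5 around the A09 copy. The largest neighbouring difference at the C05 copy, chosen after its value was seen, was BnaC05g000830.3DH, which was paired with AT1G01060 (LHY, a clock transcription factor that peaks around dawn). It averaged 4.90 TPM in N99 and 201 TPM in DH12075, a log2 difference of -5.48 (SE 0.26). The other 2 copies had neighbours with differences of like size. BnaA10g000870.3DH, 4 IDs after the A10 copy and among the 5 above, averaged 6.90 TPM in N99 and 245 TPM in DH12075 (-5.50, SE 0.31). It was not paired, but it follows the A10 copy at the same distance as BnaC05g000830.3DH follows the C05 copy. Whether these 2 IDs are copies of the same gene was not tested. BnaA09g068660.3DH, 10 IDs before the A09 copy, averaged 0 TPM in N99 and 55.5 TPM in DH12075 (-5.70, SE 0.19). The time of day at harvest is not given in the sources used here, and its part in the differences between the lines was not tested.

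No *B. napus* copy was called between leaf and cotyledon when all libraries were used. In N99, leaf minus cotyledon was 0.36 on the log2 scale for the A10 copy, 0.50 for the C05 copy and 0.28 for the A09 copy, with adjusted p of 0.385, 0.244 and 0.540 (limma). The sum was 104, 116 and 107 TPM in N99 leaves, against 92.2, 64.1 and 103 TPM in N99 cotyledons, with every leaf library above every cotyledon library (log2 difference 0.36, SE 0.31, limma adjusted p = 0.424). Cotyledon replicate 2 gave the lowest value, and without it the log2 differences were 0.17 for the A10 copy, 0.29 for the C05 copy, 0.10 for the A09 copy and 0.16 for the sum (limma, adjusted p from 0.403 to 0.712). Rescaled to leave out its 10 most abundant genes, that library had a sum of 102 TPM, beside 102 and 112 TPM in the other N99 cotyledons. Of 41254 genes tested in N99, 17.2% were higher and 12.2% lower in leaf, and 0 of 3 copies were called (0 of 3 also at an unadjusted p under 0.05).

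In DH12075, no copy was called either, but for the A10 and C05 copies this rested on 1 library. Leaf minus cotyledon was 0.31 for the A10 copy (SE 0.16, limma adjusted p = 0.148), 0.43 for the C05 copy (SE 0.25, limma adjusted p = 0.193) and -0.14 for the A09 copy (SE 0.10, limma adjusted p = 0.270). The A10 and C05 levels of cotyledon replicate 3 (26.4 and 22.9 TPM) lay within the leaf range, while those of the other 2 cotyledon libraries lay below it. Without that library, an alternative chosen after seeing the data, leaf was higher by 0.47 for the A10 copy (limma, adjusted p = 0.0274) and by 0.71 for the C05 copy (limma, adjusted p = 0.0163). The A09 copy (-0.11) and the sum (0.21) stayed uncalled without it (limma, adjusted p = 0.458 and 0.137). The sum was 95.5, 95.4 and 87.3 TPM in leaves, against 77.8, 82.2 and 102 TPM in cotyledons, which overlapped (log2 difference 0.10, 95% interval -0.20 to 0.39, limma adjusted p = 0.545). Of 41199 genes tested in DH12075, 20.8% were higher and 29.5% lower in leaf, beside 0 of 3 copies called and 0 of 3 at an unadjusted p under 0.05.

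Shares of the sum were also compared between tissues. The A10 copy held 28.3 ± 1.59% of the sum in DH12075 leaves and 24.1 ± 1.55% in DH12075 cotyledons (SD, n = 3 each), and the tissues did not overlap. Its exact permutation p was 0.1 (adjusted p = 0.3), the smallest that 3 against 3 libraries allow, so this design cannot pass the threshold. Larger differences that overlapped were those of the C05 copy in DH12075, 4.76 points for leaf minus cotyledon, and of the A09 copy, -8.87 points (exact permutation p = 0.2 each, adjusted p = 0.36). The A10 copy held 14.6 ± 1.18% in N99 leaves and 14.5 ± 2.65% in N99 cotyledons (SD, n = 3 each). Whether the tissue effect differed between the lines was tested on the levels by an interaction term. For that term 0 of 3 copies were called (limma, adjusted p between 0.346 and 0.950), beside 10.6% of all genes called at the same adjusted threshold. At an unadjusted p under 0.05 it was also 0 of 3 copies, and the share of all genes there was not counted.

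None of the 3 *C. sativa* copies was called between tissues, and 1 of 3 was at an unadjusted p under 0.05. Csa14g002090 had 39.7, 40.4 and 37.4 TPM in leaf, against 35.5, 30.5 and 31.8 TPM in cotyledon, without overlap. Its log2 difference was 0.26 (95% interval 0.03 to 0.49), which did not pass after adjustment (SE 0.10, limma adjusted p = 0.0777). Csa17g001570 had 43.8, 41.5 and 38.7 TPM in leaf, against 40.1, 36.2 and 35.0 TPM in cotyledon, which overlapped (log2 difference 0.15, limma adjusted p = 0.269). Csa03g002150 had 35.4, 33.9 and 33.5 TPM in leaf, against 33.5, 33.2 and 30.6 TPM in cotyledon, and its smallest leaf value lay just above its largest cotyledon value (log2 difference 0.08, limma adjusted p = 0.517). Of 41797 genes tested in DH55, 7.97% were higher and 29.5% lower in leaf, and the median gene was at -0.19, so all 3 copies lay above the median. Quantile normalization moved the median to 0.01 and the share of calls in the direction of leaf to 50.4%, against 21.3% with the deposited scaling. With it the copies were called, at 0.29 for Csa03g002150, 0.47 for Csa14g002090 and 0.36 for Csa17g001570 (limma, adjusted p of 0.0473, 0.0123 and 0.0298). Whether these copies count as higher in leaf thus depended on the scaling.

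The *C. sativa* copies each held about the same share of their sum. Csa17g001570 held 36.0 ± 0.80% of the sum in leaf and 36.3 ± 0.43% in cotyledon, Csa14g002090 34.1 ± 0.75% in leaf and 31.9 ± 1.18% in cotyledon, and Csa03g002150 29.9 ± 0.66% in leaf and 31.8 ± 1.32% in cotyledon (SD, n = 3 each). Shares of the last 2 copies did not overlap between tissues (exact permutation p = 0.1 each, the smallest possible, adjusted p = 0.3). Over the 6 libraries, correlations of log2(TPM + 1) between the copies lay between 0.70 and 0.90.

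**Figure D3:**
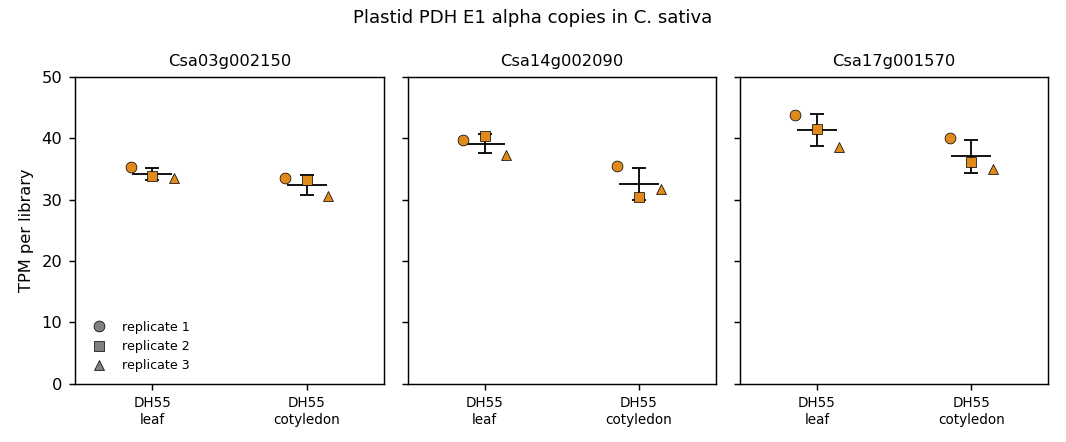
TPM of the 3 *C. sativa* copies in leaf and cotyledon of DH55, 1 panel per copy. Points are libraries, the wide bar is the mean and the whiskers are 1 SD (n = 3); Csa14g002090 does not overlap between tissues (39.1 TPM in leaf and 32.6 TPM in cotyledon on average), and the copies lie within 30.5 to 43.8 TPM.

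In pennycress the E1 alpha gene was higher in leaf. CAH2039194 had 178, 173 and 136 TPM in leaf, against 115, 87.4 and 114 TPM in cotyledon, without overlap. The mean was 162 ± 22.9 TPM in leaf and 106 ± 15.8 TPM in cotyledon (SD, n = 3 each), a ratio of 1.53. It was called as higher in leaf (log2 difference 0.61, SE 0.17, 95% interval 0.22 to 1.01, limma adjusted p = 0.0281), the only call among the 7 copies between tissues with all libraries. Leaving out any 1 replicate number kept the direction, with log2 differences from 0.43 to 0.80, but lost the call (limma, adjusted p from 0.0590 to 0.134). The call was also lost with the replicate number as a block (0.61, limma adjusted p = 0.0757). Whether these numbers pair the samples is not known. Of 14617 genes tested in pennycress, 15.6% were higher and 20.6% lower in leaf.

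The leaf effect was also set side by side between species, on log2 ratios within each table. The exact test exchanged tissue labels within each line, so its p refers to no tissue effect in either line. It does not isolate a difference between their effects, and a small p can come from an effect in 1 line. The summed copies gave 0.62 in pennycress, 0.17 in DH55 and 0.10 in DH12075. The difference was 0.52 for pennycress minus DH12075 (exact permutation p = 0.135, adjusted p = 0.33), 0.45 for pennycress minus DH55 (exact p = 0.22, adjusted p = 0.33) and 0.07 for DH55 minus DH12075 (exact p = 0.655). None passed the threshold, and the call in pennycress was not shown to differ from the other species. With only the most expressed copy of each species, pennycress minus DH12075 was 0.76 (exact permutation adjusted p = 0.015) and DH55 minus DH12075 was 0.30 (exact permutation adjusted p = 0.03), the A09 copy being the one used for *B. napus*, while pennycress minus DH55 was 0.46 (exact permutation adjusted p = 0.19). With N99 in place of DH12075, pennycress minus *B. napus* was 0.26 and DH55 minus *B. napus* was -0.20 (exact permutation adjusted p = 0.615 each).

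Ordered by mean, the summed level was 162 TPM in pennycress leaf, 115 TPM in DH55 leaf, 109 TPM in N99 leaf, 106 TPM in pennycress cotyledon, 102 TPM in DH55 cotyledon, 92.8 TPM in DH12075 leaf, 87.2 TPM in DH12075 cotyledon and 86.3 TPM in N99 cotyledon. Between neighbours in that order, the libraries did not overlap only for pennycress leaf beside DH55 leaf and for DH55 cotyledon beside DH12075 leaf, and every other neighbouring pair overlapped. Species were quantified against separate transcript sets, so no test was made between their levels.

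**Figure D4:**
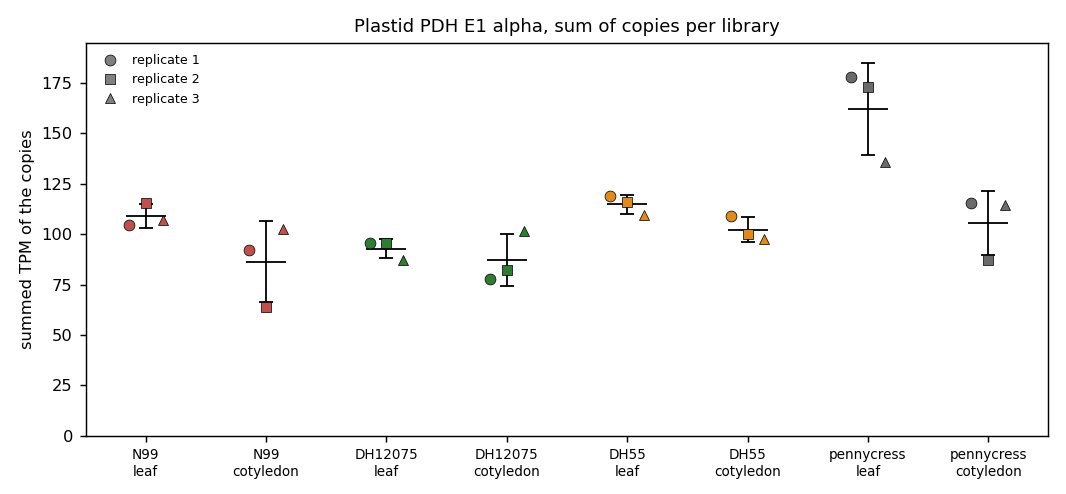
Summed TPM of all listed E1 alpha copies by line and tissue, 1 point per library, with the mean (wide bar) and 1 SD (whiskers, n = 3). Pennycress leaf stands highest at 162 TPM on average, and the other 7 groups lie between 86.3 and 115 TPM.

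The partner subunit, plastid E1 beta, was followed through the IDs paired with AT1G30120, which numbered 4 for *B. napus*, 3 for *C. sativa* and 1 for pennycress (any further E1 beta genes were not analysed here). Its copies summed to 86.8 ± 20.1 TPM in N99 and 130 ± 16.6 TPM in DH12075 (SD, n = 6 each). The ratio of E1 alpha to E1 beta within a library lay between 0.982 and 1.22 in N99 and between 0.632 and 0.793 in DH12075, without overlap. The sum of E1 alpha was not called between the lines, while 1 of 4 beta copies was. This copy, BnaA08g025350.3DH, averaged 25.5 TPM in N99 and 57.3 TPM in DH12075 (log2 difference -1.17, SE 0.14, limma adjusted p = 1.15e-05). The other 3 beta copies were not called between the lines.

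In *C. sativa* and pennycress the alpha subunit exceeded this beta gene. E1 alpha over E1 beta was 1.44 ± 0.12 in DH55 leaf and 1.42 ± 0.11 in DH55 cotyledon, and 2.37 ± 0.01 in pennycress leaf and 1.66 ± 0.09 in pennycress cotyledon (SD, n = 3 each). The pennycress tissues did not overlap in this ratio (2.36 to 2.39 in leaf, 1.58 to 1.76 in cotyledon). E1 beta itself was 68.3 ± 9.50 TPM in pennycress leaf and 63.3 ± 7.29 TPM in pennycress cotyledon (log2 difference 0.11, limma adjusted p = 0.596). None of the 3 *C. sativa* beta copies was called between tissues, while in DH12075 the least abundant of the 4 beta copies, BnaA09g035730.3DH, was higher in leaf (4.67 TPM in leaf and 2.29 TPM in cotyledon, limma adjusted p = 0.00194).

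**Figure D5:**
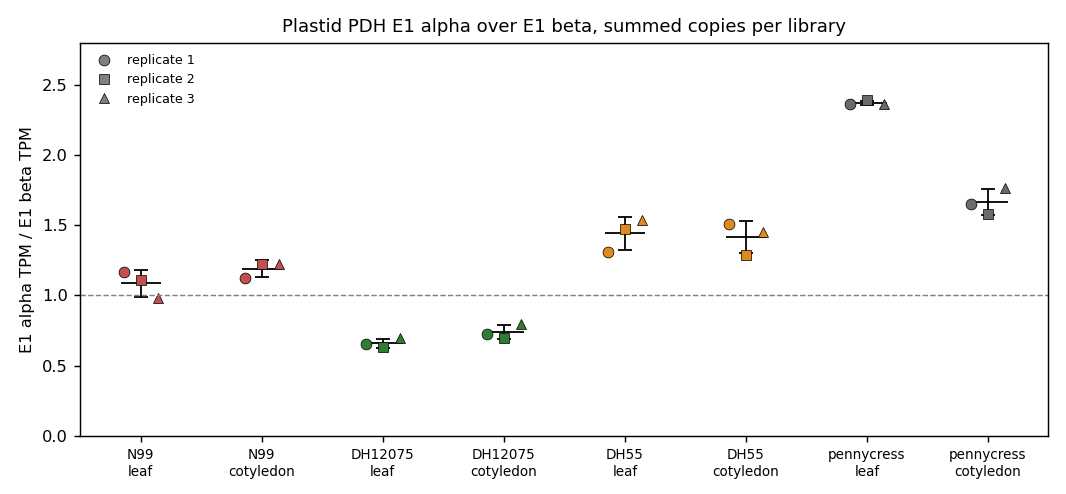
Ratio of summed E1 alpha TPM to summed E1 beta TPM (copies paired with AT1G30120) in each library, by line and tissue, with the mean (wide bar), 1 SD (whiskers, n = 3) and a dashed line at a ratio of 1. N99 lies between 0.982 and 1.22, above DH12075 (0.632 to 0.793), and pennycress leaf lies highest.

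A mitochondrial counterpart is E1 alpha of AT1G24180 (IAR4), and any further mitochondrial E1 alpha genes were not analysed here. In DH12075 all 4 of its copies were lower in leaf, from -0.95 for BnaA07g013270.3DH to -0.46 for BnaC05g025200.3DH (limma, adjusted p of 0.00171 and 0.0177), and they summed to 19.7 ± 3.37 TPM in leaf and 35.3 ± 0.67 TPM in cotyledon (SD, n = 3 each). In N99 they summed to 33.8 ± 2.72 TPM in leaf and 34.7 ± 5.80 TPM in cotyledon (SD, n = 3 each), and none was called. The ratio of plastid E1 alpha to this mitochondrial gene was higher in leaf without overlap in 3 of the 4 lines. It was 4.83 ± 0.98 in leaf and 2.47 ± 0.33 in cotyledon of DH12075, 3.25 ± 0.42 in leaf and 2.48 ± 0.35 in cotyledon of N99, and 9.72 ± 2.69 in leaf and 5.20 ± 1.39 in cotyledon of pennycress (SD, n = 3 each). In DH55 it was 1.48 ± 0.02 in leaf and 1.43 ± 0.08 in cotyledon (SD, n = 3 each), with overlap.

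Other genes of acetyl-CoA and fatty acid metabolism were taken from a list of 9 *A. thaliana* genes that includes both of these partners, and 7 of the 9 were paired in *B. napus*. Only 1938 *A. thaliana* genes were open to pairing, so the list does not cover the whole pathway. Between lines, 7 of the 17 tested IDs were higher and 2 lower in N99, beside 24.6% higher and 29.2% lower over all genes. Those higher included BnaA08g034530.3DH, paired with ACLA-1 (a subunit of ATP citrate lyase, which makes cytosolic acetyl-CoA from citrate), at 19.5 TPM in N99 and 1.81 TPM in DH12075 (log2 difference 2.75, limma adjusted p = 1.27e-08). They also included 3 of 4 copies of the branched-chain 2-oxoacid dehydrogenase E1 alpha gene AT1G21400, a mitochondrial relative that acts in amino acid breakdown. Its summed copies spread widely in N99 cotyledons, from 39.2 to 121 TPM, against 11.1 to 14.6 TPM in DH12075 cotyledons. Also higher in N99 were the AT1G24180 copies BnaC05g025200.3DH (0.51, limma adjusted p = 0.00215) and BnaC07g023010.3DH (0.41, limma adjusted p = 0.0222). One copy of LIP2, which attaches lipoyl groups in mitochondria, was lower in N99 (BnaA10g003320.3DH, 14.5 TPM in N99 and 21.1 TPM in DH12075, limma adjusted p = 0.00320).

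Between tissues, IDs of the list were called in both directions. In N99, 2 of 17 tested IDs were higher and 2 lower in leaf, beside 17.2% and 12.2% over all genes. Without cotyledon replicate 2 of N99, 1 was higher and 0 were lower. In DH12075, 5 of 17 were higher and 5 lower in leaf, beside 20.8% and 29.5% over all genes, the lower ones being the 4 mitochondrial E1 alpha copies and a copy of ACX3, a peroxisomal acyl-CoA oxidase of fatty acid breakdown. In DH55, 1 of 24 was higher and 2 lower, beside 7.97% and 29.5%, and in pennycress, 1 of 9 was higher and 3 lower in leaf, beside 15.6% and 20.6%. Median log2 differences of the tested IDs were -0.03 in N99, 0.11 in DH12075, 0.03 in DH55 and -0.27 in pennycress, beside 0.04, -0.08, -0.19 and -0.10 over all genes.

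The ACLA-1 copy BnaA08g034530.3DH was higher in leaf in both *B. napus* lines (31.2 TPM in leaf and 7.77 TPM in cotyledon of N99, limma adjusted p = 2.98e-05), as was the pennycress ACLA-1 gene CAH2038352 (7.17 TPM in leaf and 1.19 TPM in cotyledon, limma adjusted p = 0.000703). Pennycress ACLA-3, the other listed lyase gene, was lower in leaf (97.5 TPM in leaf and 143 TPM in cotyledon, limma adjusted p = 0.0112). KAR (3-ketoacyl-ACP reductase) and FATB (acyl-ACP thioesterase), which work downstream of acetyl-CoA in plastid fatty acid synthesis, were paired in *C. sativa* and pennycress and not called between tissues there. Pennycress KAR averaged 28.5 TPM in leaf and 25.3 TPM in cotyledon, and FATB 74.2 TPM in leaf and 71.1 TPM in cotyledon. The leaf call of the pennycress E1 alpha gene was thus not shared by its E1 beta, KAR or FATB genes, and the differences between these genes' effects were not tested.

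Most markers of green tissue went with leaf. All 5 of 5 photosystem, light harvesting and electron transfer genes of the list were higher in pennycress leaf, beside 15.6% of all genes, with a median log2 difference of 1.64. In DH55, 9 of 11 IDs of 4 such genes were higher in leaf, beside 7.97% of all genes, with a median of 0.52. The 2 not called were both IDs of FNR2, an electron transfer gene: Csa03g023870 (-0.82, SE 1.68) and Csa14g025290 (0.15, limma adjusted p = 0.288). Their summed levels did not overlap between tissues for LHCB6, a light harvesting protein, at 1037 to 2233 TPM in pennycress leaf and 350 to 473 TPM in pennycress cotyledon. No marker of the list was paired in *B. napus*. A seed storage gene of the list, cruciferin AT1G03880, was paired in *B. napus* only and averaged at most 0.27 TPM in a group, and AT1G03890 was not paired. The part of green tissue content in the pennycress E1 alpha difference was not tested.

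Among genes averaging 10 TPM or more, those most like the summed E1 alpha level were found by the Pearson correlation of log2(TPM + 1). In *B. napus*, over 12 libraries and 12056 genes, they were BnaC05g045510.3DH (0.964) and BnaC03g072940.3DH (0.935), and among paired genes AT1G01940 (0.854), AT1G30630 (0.827) and AT1G12230 (0.827). In *C. sativa*, over 6 libraries, they were Csa09g092040 (0.996) and Csa12g009570 (0.992), and among paired genes AT1G10830 (0.978), which encodes the carotenoid isomerase Z-ISO, AT1G15140 (0.964) and AT1G02880 (0.954), a thiamine pyrophosphokinase that makes the E1 cofactor. In pennycress, over 6 libraries, they were CAH2066182 (0.9999) and CAH2038873 (0.996), of which CAH2038873 was paired with AT1G05140, and among other paired genes AT1G14280 (PKS2, 0.995) and AT1G17840 (the cuticular lipid transporter ABCG11, 0.992). E1 beta had correlations of 0.44 (*B. napus*), 0.71 (*C. sativa*) and 0.74 (pennycress) with the summed E1 alpha level. For the mitochondrial E1 alpha gene AT1G24180 they were 0.08 (*B. napus*), 0.87 (*C. sativa*) and -0.88 (pennycress). These correlations are a description: the libraries of a species share their scaling and fall into 2 tissues and, in *B. napus*, 2 lines.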

How the data were processed

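RNA-seq libraries of leaf and cotyledon of 4 lines (24 in all, 3 replicates per group) were grouped from the sample labels. Per the study's methods and the submitters' processing notes, the authors used Trimmomatic 0.32 for trimming, Salmon 1.10.0 for quantification against 1 transcriptome per species, and tximport for gene-level summaries. The deposited values are TPM, 1 table per line, unlogged and unpooled. Read numbers are not kept, so the depth is unknown and precision is judged from replicates only. Library names in the tables were all mapped (0 value columns left over).

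*A. thaliana* names were attached to IDs by a numerical match of the deposited tables with a supplementary table of ortholog sums, of which only the pairing was kept. Only the first part of that table was used, with 1938 *A. thaliana* genes, so genes outside it could not be paired. Of the genes usable in each species, 904 of 1731 were paired in *B. napus*, 1510 of 1745 in *C. sativa* and 1733 of 1733 in pennycress. None of 300 entries with shuffled libraries was paired in any species. That search tried single IDs and, outside pennycress, pairs of IDs. It thus did not cover matches of more copies, such as those of E1 alpha in *B. napus* and *C. sativa*. Of 200 simulated sums, 164, 199 and 200 were recovered in *B. napus*, *C. sativa* and pennycress. They were drawn from genes already paired, so their recovery does not describe the genes left unpaired. The RefSeq gene table of another *B. napus* line held 0 of the 7 IDs.

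Tests used limma 3.58.1 (R 4.3.3; lmFit, eBayes with a variance trend) on log2(TPM + 1) for genes averaging 1 TPM or more, with the summed copies as 1 more row, Benjamini-Hochberg adjustment over all genes and a threshold of 0.05. Fold changes on this scale understate those of low genes. The authors' own count-based test needs read counts and was not used. Shares and differences between species used two-sided exact permutation tests (Python 3.11.15, numpy 2.4.6, pandas 2.3.3, matplotlib 3.10.9). The limma step was tested on simulated data. Alternatives were a pseudocount of 0.1, no filter, quantile normalization, rescaling without the 10 most abundant genes, a replicate block, single tissues, replicates left out and, added after the data were seen, leaving out cotyledon replicate 3 of DH12075, and, for shares and list counts, cotyledon replicate 2 of N99. Genes named are the members, the paired genes of the list, and the 2 IDs and 3 paired genes per species most like the sum. The neighbouring ID with the largest difference at each *B. napus* copy was also named, chosen after the data were seen. The members and lists were chosen with earlier results of these data known.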

Additional observations from a re-analysis of the deposited data

How the results depend on the processing

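Of 287 alternative values, 235 kept their direction and side of the threshold (or, for counts, stayed within 1.5 times), 12 newly passed it, 15 no longer passed it, 5 counts moved further and 20 changed sign, none of them past the threshold before or after. Of the 15, 10 are the A10 and C05 shares between lines, in sets too small for the exact test to pass: -13.7 and 12.2 points in leaf alone, -9.63 and 13.7 points in cotyledon alone, and, with 1 replicate number left out, from -12.1 to -11.1 points for A10 and from 12.3 to 14.0 points for C05. The other 5 are the C05 difference between lines in cotyledon alone (0.76) and values of pennycress leaf minus cotyledon. The pennycress call was lost with any 1 replicate number left out (0.43 to 0.80, fewer samples). It was also lost with the replicate block, which used all its libraries (0.61).

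Quantile normalization brought 6 values past the threshold (limma): leaf minus cotyledon in DH55 at 0.29 for Csa03g002150, 0.47 for Csa14g002090, 0.36 for Csa17g001570 and 0.30 for the sum (adjusted p = 0.0391), and N99 minus DH12075 at 0.31 for the A09 copy and 0.31 for the sum. It forces equal distributions on the libraries of a fit. Leaving out libraries gave leaf minus cotyledon in DH12075 from 0.18 to 0.55 for the A10 copy and from 0.19 to 0.84 for the C05 copy, past the threshold only when replicate 3 was left out, or its cotyledon library alone (0.47 and 0.71). With the most expressed copy, pennycress minus DH12075 was 0.76 and DH55 minus DH12075 was 0.30 in the leaf effect.

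Signs changed among uncalled values. Leaf minus cotyledon of the A09 copy in N99 was -0.0033 with quantile normalization, and N99 minus DH12075 in cotyledon alone was -0.14 for the A09 copy and -0.033 for the sum. The A09 share between lines was 1.496 points in leaf alone. The interaction was -0.077 (A10) and -0.22 (C05) with quantile normalization, and -0.092 (A10) and -0.077 (C05) after rescaling. DH55 minus *B. napus* in the leaf effect was -0.20 with N99. With libraries left out, values ran from -0.0031 to 0.25 for the sum between DH12075 tissues, from -0.021 to 0.17 for the A09 copy between lines, from -0.14 to 0.15 (A10) and from -0.21 to 0.24 (C05) for the interaction, from -0.81 to 1.74 points for the A10 share between N99 tissues, and from -0.087 to 0.19 for DH55 minus DH12075. The listed pathway IDs called higher in N99 leaf numbered 1 with no filter, 1 with a pseudocount of 0.1 and 1 without cotyledon replicate 2, against 2 in the analysis reported, and those lower numbered 0 with no filter and 0 without that library, against 2. The cause was not tested. In the interaction, 72.3% of all calls were positive, against 56.4% with quantile normalization and 58.5% after rescaling, and in N99 58.4% of tissue calls were higher in leaf, against 46.1% after rescaling, while 0 E1 alpha copies were called in each case.

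Whether replicate numbers pair the samples is not known. In no line were all 3 same-numbered leaf and cotyledon libraries correlated above 0.1 in their deviations from the group means. With only 3 libraries per group, these correlations cannot decide the question. With the replicate number as a block, the pennycress difference stayed at 0.61 with an adjusted p of 0.0757 (limma), and the other 20 block values kept their side of the threshold. Depth is unknown, only 3 libraries stand behind each group, and exact tests of 3 against 3 cannot give a p under 0.1. Any reads shared between copies, and N99 transcripts that differ from DH12075, can shift levels between copies.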
